A study of Mus musculus with 14 samples.

Results

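The comparison described here asks whether loss of Rheb1 changed gene expression differently in myeloid cells than in myeloid progenitors. It uses 12 of the 14 samples of the series, with 3 samples in each of 4 groups: wild-type progenitors, Rheb1-/- progenitors, wild-type myeloid cells and Rheb1-/- myeloid cells. The Rheb1-/- mice carried 2 floxed Rheb1 alleles together with Vav1-cre, a recombinase that is active throughout the blood system from the stem cell onwards. The sources used here do not say whether the wild-type mice carried floxed alleles or Cre, nor do they state age, sex, sorting gates or the number of mice behind a sample. The sample titles call the progenitors GMP, a usual short form of granulocyte-macrophage progenitors, and the source labels call them myeloid progenitors. Each sample was hybridised to 1 single-colour Agilent array. For each of 16711 autosomal genes, the genotype effect is the mean log2 level in Rheb1-/- samples minus that in wild-type samples, and the stage difference is the effect in myeloid cells minus the effect in progenitors. A level is the log2 processed intensity minus the 75th percentile of its array, so a gene at 0 lies at that percentile.

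Rheb1 (official symbol Rheb) encodes a small GTPase on the lysosome surface that switches on mTORC1, a kinase complex that couples amino acids, energy and growth factors to cell growth. Active mTORC1 raises the translation of ribosomal protein mRNAs, ribosome production, nucleotide supply and, through SREBP, the transcription of sterol and fatty acid synthesis genes, and it holds back autophagy and lysosome production. Myeloid progenitors are dividing marrow cells that fill their primary granules with proteases, whereas maturing neutrophils, monocytes and macrophages leave the cell cycle and build up phagocytic and microbicidal proteins.

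The share of spots well above background was 58.5% to 67.2% on the 12 arrays, with 0 saturated. In myeloid cells it was 65.9%, 67.2% and 65.7% on wild-type and 62.3%, 60.9% and 60.8% on Rheb1-/- arrays, without overlap. In progenitors the genotypes overlapped, with 65.6%, 58.5% and 61.7% on wild-type and 63.9%, 65.6% and 67.1% on Rheb1-/- arrays. The part of this difference in the myeloid effects was not tested. Replicates correlated across genes at 0.988 to 0.992, and the small number of arrays limits the precision. Marker levels differed between the labelled stages. Kit, the stem cell factor receptor of progenitors, lay between 2.70 and 3.09 on progenitor arrays and between 0.42 and 1.57 on myeloid cell arrays, and the mean level of 29 neutrophil maturation genes lay between 2.42 and 3.32 and between 6.35 and 6.88. The 3 wild-type myeloid cell arrays lay on slide 1, which held no other of the 12 arrays, and the 3 Rheb1-/- myeloid cell arrays on slide 4 with Rheb1-/- progenitor array 3. In myeloid cells slide and genotype cannot be told apart, and neither can slide and the stage difference. Both genotypes of progenitors met on slide 3 (wild-type arrays 2 and 3, Rheb1-/- arrays 1 and 2), which gives a progenitor effect within 1 slide, and wild-type progenitor array 1 lay on slide 2, scanned on another day. No sample is tied to an animal by the labels, so p-values measure the spread between these samples, which may be technical.

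Rheb itself fell at both stages. Its level was 3.99, 4.08 and 3.82 on the wild-type and 3.31, 2.69 and 2.65 on the Rheb1-/- progenitor arrays. On myeloid cell arrays it was 3.61, 3.00 and 2.86 in wild-type and 2.23, 2.16 and 2.43 in Rheb1-/- samples. The genotypes did not overlap in either cell type, as for 11.5% of all genes tested (50.2% in myeloid cells and 20.0% in progenitors, each taken by itself), and wild-type myeloid cell array 1 was the highest of its group. The fall was 1.85-fold in myeloid cells and 2.11-fold in progenitors, with a mean effect of -0.98 ± 0.15 (SE; adjusted p = 0.00247, limma) and a stage difference of 0.20 (95% interval -0.50 to 0.89). The probe lies on chromosome 5 (24308641 to 24308675, minus strand, mm9). The sources used here do not state which exons were deleted, and the probe may lie outside them. On the 2 stem cell arrays, 1 per genotype, the difference for Rheb (Rheb1-/- minus wild-type) was -1.20, a value with no replicate.

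The genotype effect differed between the stages for part of the genes, a difference that cannot be told apart from slide. A stage difference at an adjusted p under 0.05 was found for 1893 genes (11.3% of those tested), 956 higher (5.72%) and 937 lower (5.61%) in the effect of myeloid cells than in that of progenitors. Of these, 655 differed at least 2-fold, 200 higher and 455 lower, and the median size was 0.82. Of the 1580 passing genes that were well above background on all 12 arrays, 918 were higher and 662 lower. The others were at background on some arrays and passed the filter through the groups in which they were high. The higher and lower shares depend on how arrays are scaled: 50.5% of the passing genes were higher here, 62.8% with quantile normalization and 63.0% in the deposited value table, and those scalings moved the median stage difference of all genes from -0.08 to -0.01. With the 4 progenitor arrays of slide 3 alone the counts were 220 and 333, and 25.1% of the 1893 genes passed again. Leaving out any one of 9 arrays lowered the number of higher calls by over 1.5 times. The fewest, 446 higher and 485 lower, passed without Rheb1-/- progenitor array 1, and the other counts were 584 and 600 without wild-type progenitor array 1, 523 and 656 without wild-type progenitor array 2, 510 and 588 without Rheb1-/- progenitor array 2, and 517 and 618 without Rheb1-/- progenitor array 3. They were 549 and 508 without wild-type myeloid cell array 2, 535 and 481 without wild-type myeloid cell array 3, 501 and 553 without Rheb1-/- myeloid cell array 2, and 455 and 509 without Rheb1-/- myeloid cell array 3.

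Most stage differences were effects seen in myeloid cells and not detectable in progenitors. By the unadjusted test in each cell type, 1464 of the 1893 genes (77.3%) changed in myeloid cells alone (8.76% of all genes tested), 819 upwards and 645 downwards. The 2 effects had opposite signs for 258 genes (13.6%), and 217 of those were lower in Rheb1-/- myeloid cells and higher in Rheb1-/- progenitors. For 117 genes the effect had the same sign and was larger in myeloid cells, 88 upwards and 29 downwards. Only 52 genes changed in progenitors alone, 44 upwards and 8 downwards, and 2 (Kif1a and Dgat2, 0.012%) changed more in progenitors. A missed threshold in progenitors does not show that those genes did not change there.

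A shared effect was defined as a mean effect at an adjusted p under 0.05, the same sign at an unadjusted p under 0.05 in each cell type, and a 95% interval of the stage difference inside -1 to 1. It was found for 585 genes (3.50% of those tested, where the mean effect alone passed for 24.3%), 258 upwards (1.54%) and 327 downwards (1.96%), and 43 of them also had a stage difference within that range. The shared effects so defined were small: the median size of the mean effect was 0.47, 153 genes changed at least 1.5-fold and 16 at least 2-fold. The bound on the interval leaves out genes with wide errors, which can have large effects, such as C4b below. The counts fell to 153 and 186 without Rheb1-/- progenitor array 2, to 168 and 256 without wild-type progenitor array 1, and to 102 and 202 with slide 3 as the only source of progenitors. Taken alone, the effect in myeloid cells passed for 5728 genes (34.3%) and that in progenitors for 12 (0.0718%). Of the 5728 genes, 1776 had a stage difference, 496 a shared effect and 3499 (61.1%) neither, so for most of them these arrays did not settle whether the effect was shared. The 2 effects had the same sign for 57.3% of all genes and for 68.1% of the 5728, and across genes, which are not independent replicates, they correlated at r = 0.22.

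**Figure D1:**
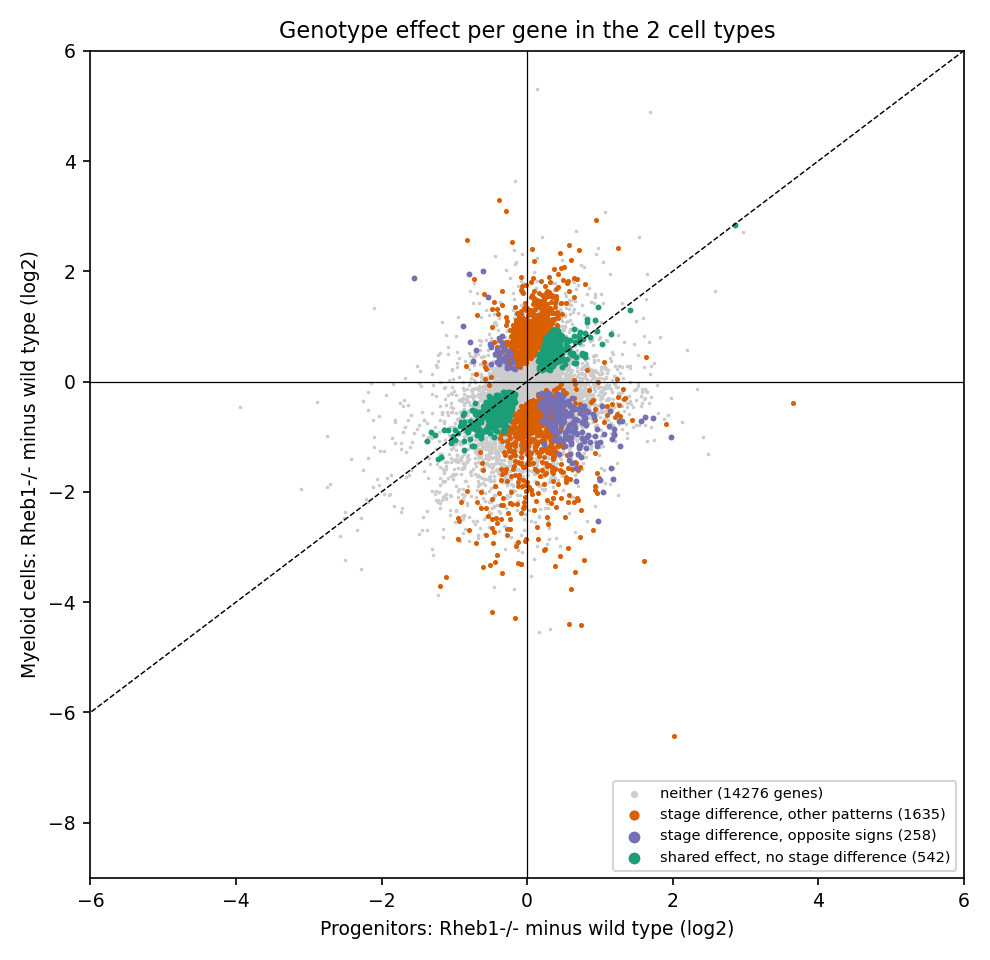
Genotype effect in myeloid cells (vertical axis, log2) against that in progenitors (horizontal axis, log2), with 1 point per tested gene and the dashed line at equal effects. Stage differences (orange) form a tall, narrow cloud along the vertical axis, opposite effects (purple) lie mainly at the lower right, where 217 of 258 are found, and shared effects (green) lie close to the dashed line.

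Over the 1893 genes the stage difference ran from -8.44 to 3.66. Genes are named by size here only if they were well above background on all 12 arrays and their genotypes did not overlap where they changed, which leaves out lower values than those given and, among the higher ones, Atf3 and Jun, whose progenitor genotypes overlapped. The 6 highest of these genes were Maff, Myl10, Fosl1, Cyb561, Nr4a2 and Ppic, and 3 of the 6 encode stress-induced transcription factors. Maff, a small Maf protein that pairs with AP-1 and CNC factors, lay at -0.22, -0.68 and -0.74 on wild-type and -0.47, -1.89 and -0.40 on Rheb1-/- progenitor arrays. In myeloid cells it lay at -3.93, -4.31 and -3.56 in wild-type and -0.60, -0.40 and -0.94 in Rheb1-/- samples. The myeloid genotypes were far apart, the progenitor genotypes overlapped, and Rheb1-/- myeloid cells reached the level of progenitors. The rise was 9.75-fold in myeloid cells, and the stage difference was 3.66 ± 0.52 (SE; adjusted p = 0.00902).

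Fosl1, an AP-1 subunit, behaved otherwise, since no other group shared its level in Rheb1-/- myeloid cells. It was -4.32, -4.53 and -4.30 on wild-type progenitor, -4.44, -5.69 and -3.89 on Rheb1-/- progenitor, -4.21, -4.35 and -4.09 on wild-type myeloid and -1.06, -1.34 and -1.0 on Rheb1-/- myeloid cell arrays, a stage difference of 3.37 ± 0.50 (adjusted p = 0.00902). Nr4a2, an orphan nuclear receptor induced by stress signals, went from -1.28, -1.39 and -1.47 to 1.11, 0.11 and 0.33 in myeloid cells, while all 6 progenitor arrays lay between -0.36 and 0.14 (stage difference 1.98 ± 0.32, adjusted p = 0.00996). Ppic, a cyclophilin of the secretory pathway, rose 5.59-fold in myeloid cells, from a range of -1.54 to -1.05 to one of 1.11 to 1.42, and by 0.57 in progenitors (stage difference 1.91 ± 0.21, adjusted p = 0.00365). Myl10, a myosin light chain (3.41 ± 0.91, adjusted p = 0.0419), and Cyb561, an ascorbate-dependent electron carrier (1.98 ± 0.45, adjusted p = 0.0253), had wider errors. The call of Myl10 was lost without any one array other than Rheb1-/- progenitor 3, wild-type myeloid 2 and Rheb1-/- myeloid 1 (adjusted p 0.0594 to 0.0889). Cyb561 lost its call without wild-type progenitor 1, Rheb1-/- progenitor 3, wild-type myeloid 2 or 3, or Rheb1-/- myeloid 2 or 3 (0.0522 to 0.0589).

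The 6 lowest of the genes named by size had a higher mean level in wild-type myeloid cells than in each of the other 3 groups. Cd5l, a secreted protein of tissue macrophages, was 0.78, 1.13 and 1.25 in wild-type and -1.02, -2.03 and -1.81 in Rheb1-/- myeloid cells. It lay between -1.18 and -0.49 on all 6 progenitor arrays, where the genotypes overlapped, and its stage difference was -2.44 ± 0.37 (adjusted p = 0.00902). Aqp2, a water channel best known from the kidney collecting duct, fell 4.15-fold in myeloid cells, from 0.22, 1.09 and 0.76 to -0.98, -1.63 and -1.47, against values of -3.64, -2.87 and -2.84 in wild-type and -2.46, -2.64 and -2.51 in Rheb1-/- progenitors (stage difference -2.63 ± 0.38, adjusted p = 0.00902). R74862, a transcript of unassigned function, gave the lowest value among the genes so named, -3.21 ± 0.59 (adjusted p = 0.0132). It was -2.03, -2.04 and -0.41 on wild-type and -4.71, -4.90 and -4.79 on Rheb1-/- myeloid cell arrays, with wild-type array 3 far above the other 2, and its call was lost with slide 3 as the only source of progenitors (adjusted p = 0.0521).

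Genes of other blood cells were among the 6. Bpgm, the 2,3-bisphosphoglycerate mutase of red cells, went from 3.37, 4.38 and 4.35 to 2.15, 0.20 and 1.40 in myeloid cells and lay between -0.21 and 0.19 on all progenitor arrays (stage difference -2.51 ± 0.60, adjusted p = 0.0289). Ighv14-2, an immunoglobulin heavy chain variable segment of B cells, whose probe may also bind related segments, went from -1.43, -0.24 and 0.55 to -2.75, -3.30 and -3.09 (-2.40 ± 0.57, adjusted p = 0.0294). Slc22a8, an organic anion transporter, had a stage difference of -2.44 ± 0.63 (adjusted p = 0.0374), but 2 dim probes of the same gene gave 1.04 and 0.89, and the mean of the probes did not pass (0.805). In a mixed sample, fewer cells of a type and less RNA per cell cannot be told apart. The calls of these 3 genes were lost without most single arrays (adjusted p 0.0501 to 0.0788). Bpgm kept its call only without wild-type myeloid 1, Rheb1-/- myeloid 1 or Rheb1-/- myeloid 2. Slc22a8 kept it only without wild-type progenitor 3, Rheb1-/- progenitor 3 or wild-type myeloid 1, and Ighv14-2 only without wild-type progenitor 1, wild-type myeloid 1 or 3, or Rheb1-/- myeloid 1.

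The 250 bases before the annotated start of Maff and R74862 are shown because these are the highest and lowest stage differences among the genes named by size (RefSeq, GRCm38.p6). Capitals mark matches, on either strand, to 4 kinds of motif: an AP-1 site (TGANTCA), a cyclic AMP response element (TGACGTCA), a GATA site (AGATAA) and a metal response element (TGCACNC or TGCGCNC). No motif contains another. Among 32851 promoters of this length, 6.75%, 1.55% and 9.99% held the first 3 and 10.4% and 12.5% the 2 forms of the metal response element. Maff has 3 starts in the table, of which the first listed is given (chr15:79346371-79346620, plus strand); it holds 1 GATA match at position -211. R74862 (chr7:143053687-143053936, minus strand) holds 1 metal response element match at -225. A match is only a match of letters.
Maff: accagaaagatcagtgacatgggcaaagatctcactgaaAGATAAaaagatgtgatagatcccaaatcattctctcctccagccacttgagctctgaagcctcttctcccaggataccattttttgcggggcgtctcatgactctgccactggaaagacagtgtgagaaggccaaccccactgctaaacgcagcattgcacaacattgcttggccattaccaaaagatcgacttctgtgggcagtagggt
R74862: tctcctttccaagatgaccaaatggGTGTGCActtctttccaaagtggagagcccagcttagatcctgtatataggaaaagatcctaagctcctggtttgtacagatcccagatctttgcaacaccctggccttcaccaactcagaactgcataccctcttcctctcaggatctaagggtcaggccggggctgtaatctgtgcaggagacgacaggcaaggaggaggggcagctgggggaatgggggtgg

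Some genes had opposite effects with the genotypes apart at both stages. Among those whose level rose in Rheb1-/- myeloid cells and fell in Rheb1-/- progenitors, Ccl3, an inflammatory chemokine, changed by 0.58 and -0.70 (stage difference 1.28 ± 0.31, adjusted p = 0.0295). Its progenitor values of 2.50, 2.73 and 2.54 in wild-type and 2.07, 1.37 and 2.24 in Rheb1-/- samples did not overlap, nor did its myeloid values of 2.22, 2.34 and 2.65 and 2.82, 2.89 and 3.25. H1f10, a linker histone, changed by 0.79 and -0.38 (1.17 ± 0.18, adjusted p = 0.00930), Sgce, a sarcoglycan, by 0.68 and -0.51 (1.19 ± 0.25, adjusted p = 0.0206), and Fbxo36, an F-box protein, by 0.67 and -0.50 (1.18 ± 0.28, adjusted p = 0.0283). H1f10 did not pass with normexp background correction (adjusted p = 0.334), nor when probes without an autosomal position were let in and another probe stood for the gene (0.954). With the mean of their probes Sgce (0.140) and Fbxo36 (0.521) did not pass. Without Rheb1-/- myeloid array 3, Ccl3 (0.0669), Sgce (0.0501) and Fbxo36 (0.0628) lost their calls. Ccl3 also lost it without wild-type progenitor 1 or 2, wild-type myeloid 2 or Rheb1-/- myeloid 2, and Fbxo36 without wild-type progenitor 1 or 2, Rheb1-/- progenitor 1 or 2, wild-type myeloid 2 or 3 or Rheb1-/- myeloid 2.

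In the other direction, Wscd2, which encodes a Golgi sulfotransferase-like protein, was -4.98, -4.87 and -5.27 in wild-type and -4.03, -2.87 and -3.53 in Rheb1-/- progenitors, a 2.96-fold rise. In myeloid cells it was -1.71, -1.91 and -1.59 in wild-type and -2.14, -2.61 and -2.60 in Rheb1-/- samples. The genotypes stood apart in both cell types and in opposite order (stage difference -2.28 ± 0.37, adjusted p = 0.00991). Niban3, a gene of B cells, changed by -1.31 in myeloid cells and 0.44 in progenitors (-1.75 ± 0.28, adjusted p = 0.00961). Zbtb46, a transcription factor of classical dendritic cells, changed by -1.47 and 0.62 (-2.09 ± 0.34, adjusted p = 0.00983), and Krt1, a keratin, by -1.14 and 0.61 (-1.75 ± 0.30, adjusted p = 0.0108). For Zbtb46 and Krt1 the other probes of the gene were mostly below background, and the mean over all probes did not pass (adjusted p = 0.989 and 0.922).

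Effects found in progenitors alone were few, 52 genes, and most of these were rises. Among the 8 falls, Car13, a cytosolic carbonic anhydrase, fell from -0.26, -0.47 and -0.51 to -0.84, -1.12 and -0.98 in progenitors and had an effect of 0.22 in myeloid cells, where the genotypes overlapped (stage difference 0.78 ± 0.16, adjusted p = 0.0184). Lipo1, a lipase, had progenitor and myeloid effects of -0.58 and 0.05 (stage difference 0.64), and Srxn1, which repairs oxidised peroxiredoxins, of -0.58 and 0.27 (0.85). Upwards in progenitors, Jam3, a junctional adhesion molecule, had effects of 1.16 and -0.40 (-1.56), Trank1 of 0.94 and -0.50 (-1.44) and Lrg1, a secreted glycoprotein of neutrophil granules, of 0.88 and -0.37 (-1.24). These calls were fragile: Lrg1 kept it only without wild-type progenitor 3, Srxn1 only without wild-type myeloid 1 or Rheb1-/- myeloid 1, and Lipo1 only without Rheb1-/- progenitor 1, wild-type myeloid 2 or Rheb1-/- myeloid 3. Jam3 lost it without wild-type progenitor 2, Rheb1-/- progenitor 2, wild-type myeloid 3 or Rheb1-/- myeloid 2 or 3, and Trank1 without wild-type progenitor 1, Rheb1-/- progenitor 3, wild-type myeloid 2 or Rheb1-/- myeloid 3 (adjusted p 0.0508 to 0.102 for the 5 genes). Other probes that were well above background on all 12 arrays gave -0.78 for Srxn1, the opposite direction, and -0.18 for Trank1, and the mean of the probes did not pass for Srxn1 (0.911), Jam3 (0.331) or Trank1 (0.160).

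Dgat2, which makes the last step of triacylglycerol synthesis, rose in both cell types and more in progenitors, from 3.53, 3.57 and 3.95 to 4.56, 4.90 and 4.78 there, against 5.81, 5.97 and 5.82 to 6.08, 6.26 and 6.30 in myeloid cells. Its rises of 1.06 and 0.35 gave a stage difference of -0.72 ± 0.19 (adjusted p = 0.0386), and 2 other probes gave -0.71 and -0.70, although the call was kept only without wild-type progenitor 3, Rheb1-/- progenitor 1 or wild-type myeloid 1 (otherwise 0.0621 to 0.0822). Kif1a, a kinesin motor that lies outside the naming rule because some arrays were at background, had a stage difference of -1.19. Of the 12 genes that passed in progenitors taken alone, 6 also passed with the same sign in myeloid cells. C4b, complement component 4, was named after its values were seen: it rose by 2.96 in progenitors and 2.72 in myeloid cells, but the interval of its stage difference (-1.45 to 0.97) was too wide for a shared effect. Of the 12, Gpt2, an alanine aminotransferase, and Sva, a seminal vesicle antigen, had a shared effect. Sva was not well above background on any of the 6 wild-type arrays and was well above it on all 6 Rheb1-/- arrays.

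The shared falls of largest mean effect among the genes named by size included those of several platelet genes. Clec1b, the platelet receptor CLEC-2, was -1.06, -1.08 and -1.27 in wild-type and -2.09, -2.88 and -2.55 in Rheb1-/- progenitors. In myeloid cells it was 0.23, 0.66 and 0.87 in wild-type and -0.67, -0.43 and -0.37 in Rheb1-/- samples. The genotypes were apart at both stages, with falls of 2.59-fold and 2.11-fold (mean effect -1.22 ± 0.15, adjusted p = 0.000905, stage difference 0.29 with an interval of -0.37 to 0.96). Gp1bb, a chain of the von Willebrand factor receptor of platelets, had effects of -1.27 in progenitors and -0.96 in myeloid cells (mean effect -1.11 ± 0.14, adjusted p = 0.00105). Tbxa2r, the thromboxane receptor, had effects of -0.99 and -1.06 (mean -1.02 ± 0.18, adjusted p = 0.00380), and Rbpms2, an RNA-binding protein, of -1.14 and -0.88 (-1.01 ± 0.14, adjusted p = 0.00150).

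Castor2, a homologue of the arginine sensor upstream of mTORC1, was -3.14, -2.75 and -2.92 in wild-type and -3.55, -3.79 and -4.09 in Rheb1-/- progenitors. In myeloid cells it was -2.36, -2.46 and -2.57 in wild-type and -3.63, -3.47 and -4.02 in Rheb1-/- samples. The genotypes did not overlap at either stage, with effects of -0.87 in progenitors and -1.24 in myeloid cells (-1.06 ± 0.12, adjusted p = 0.000840), though its other, dim probe did not follow in myeloid cells and the mean of both did not pass (0.0975).

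Shared rises of the genes named by size were led by Adam3, a membrane protein of sperm, with effects of 0.97 in progenitors and 1.35 in myeloid cells (mean effect 1.16 ± 0.12, adjusted p = 0.000640). Nid2, a basement membrane nidogen, rose by 0.94 and 1.12, Ttc21a by 0.82 and 1.13, Zfp78, a zinc finger protein, by 0.96 and 0.91, and Nxpe2 by 1.03 and 0.69, all from low levels. Nid2 did not pass with normexp background correction (0.181), and a dim second probe of Zfp78 differed in sign in myeloid cells. Mt2, metallothionein 2, a zinc-binding stress protein, was clearly expressed. It was 0.27, 0.39 and 0.38 in wild-type and 1.44, 1.91 and 1.15 in Rheb1-/- progenitors, and -0.65, -0.31 and -0.05 in wild-type and 0.33, 0.75 and 0.52 in Rheb1-/- myeloid cells. Its genotypes did not overlap at either stage, and the rises of 1.15 and 0.87 gave a mean effect of 1.01 ± 0.15 (adjusted p = 0.00171).

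Promoters of Clec1b, the largest shared fall so named, and, since Adam3 and Nid2 have no entry in the table, of Mt2 are given with the same motifs in capitals. Clec1b (chr6:129397047-129397296, plus strand) holds no match to any of them. Mt2 (chr8:94172368-94172617, plus strand) holds 1 AP-1 match at -79 and 3 metal response element matches at -223, -128 and -50, the elements through which metallothionein genes are known to respond to zinc.
Clec1b: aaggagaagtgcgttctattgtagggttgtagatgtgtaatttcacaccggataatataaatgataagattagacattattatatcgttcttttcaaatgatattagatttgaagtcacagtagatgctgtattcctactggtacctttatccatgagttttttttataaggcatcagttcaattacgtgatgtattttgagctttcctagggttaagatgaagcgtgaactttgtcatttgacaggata
Mt2: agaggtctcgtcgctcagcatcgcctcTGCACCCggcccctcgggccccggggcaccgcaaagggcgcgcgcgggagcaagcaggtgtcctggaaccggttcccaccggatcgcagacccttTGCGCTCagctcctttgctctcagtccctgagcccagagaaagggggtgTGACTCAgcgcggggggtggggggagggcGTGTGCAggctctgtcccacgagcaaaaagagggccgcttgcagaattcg

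**Figure D2:**
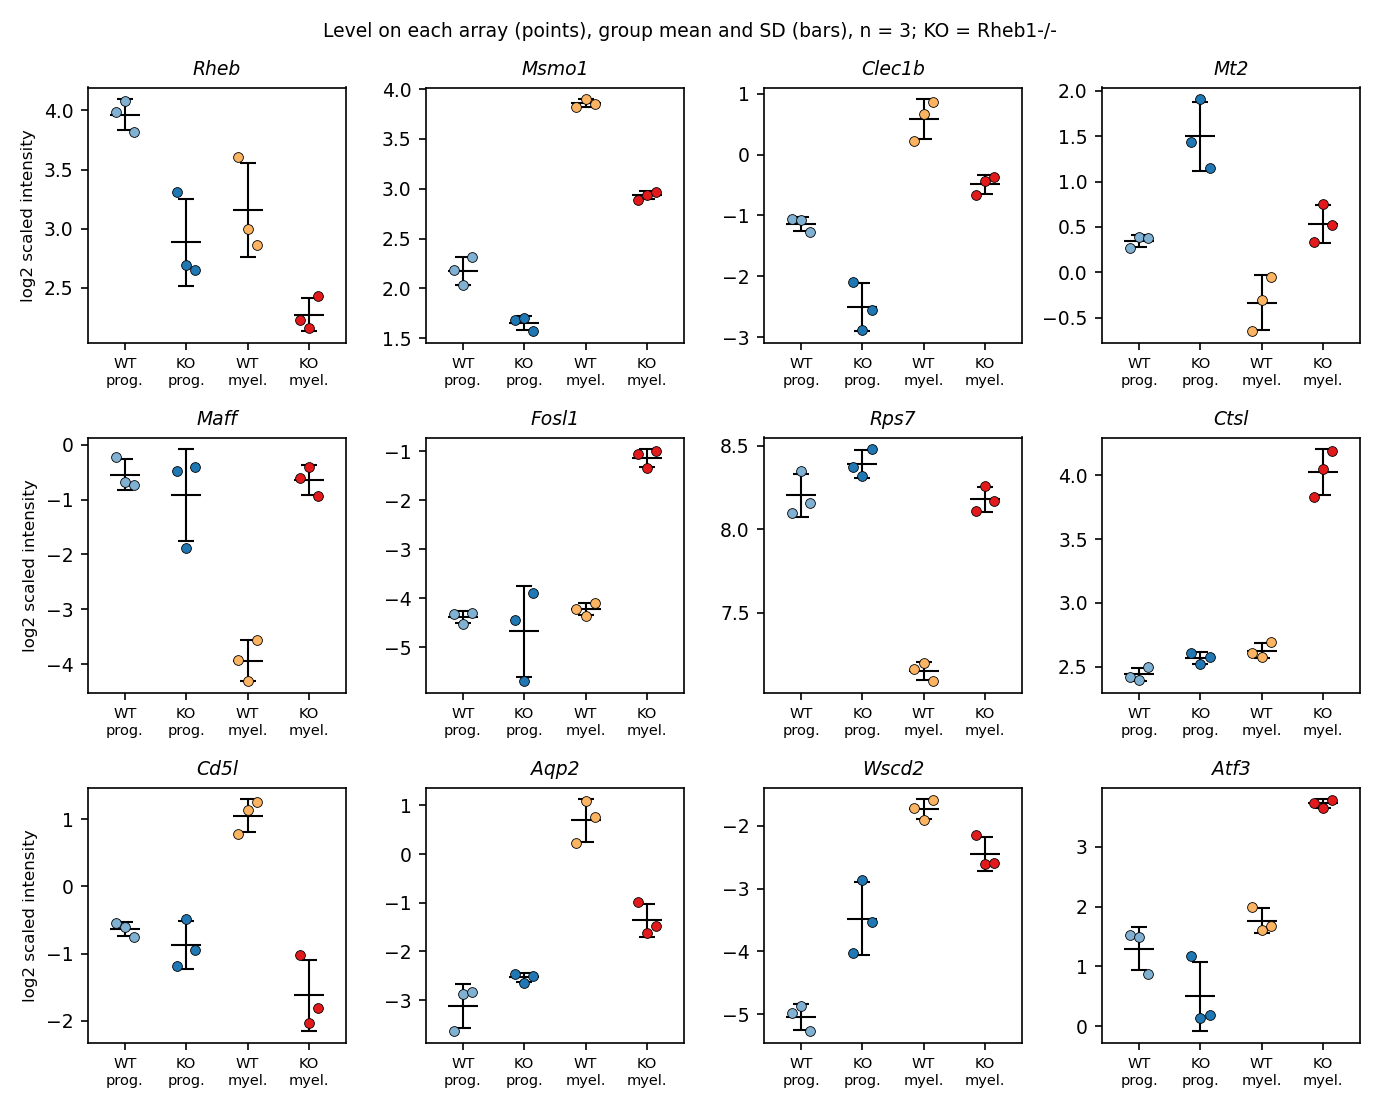
Log2 level scaled to the 75th percentile of the array for 12 genes on the 12 arrays (points), with the mean and SD of each group of 3 as bars; each panel has its own vertical axis. Rheb, Msmo1, Clec1b and Mt2 shift the same way at both stages, the next 4 genes rise in Rheb1-/- myeloid cells, Cd5l and Aqp2 fall in them, and Wscd2 and Atf3 move in opposite directions.

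**Figure D3:**
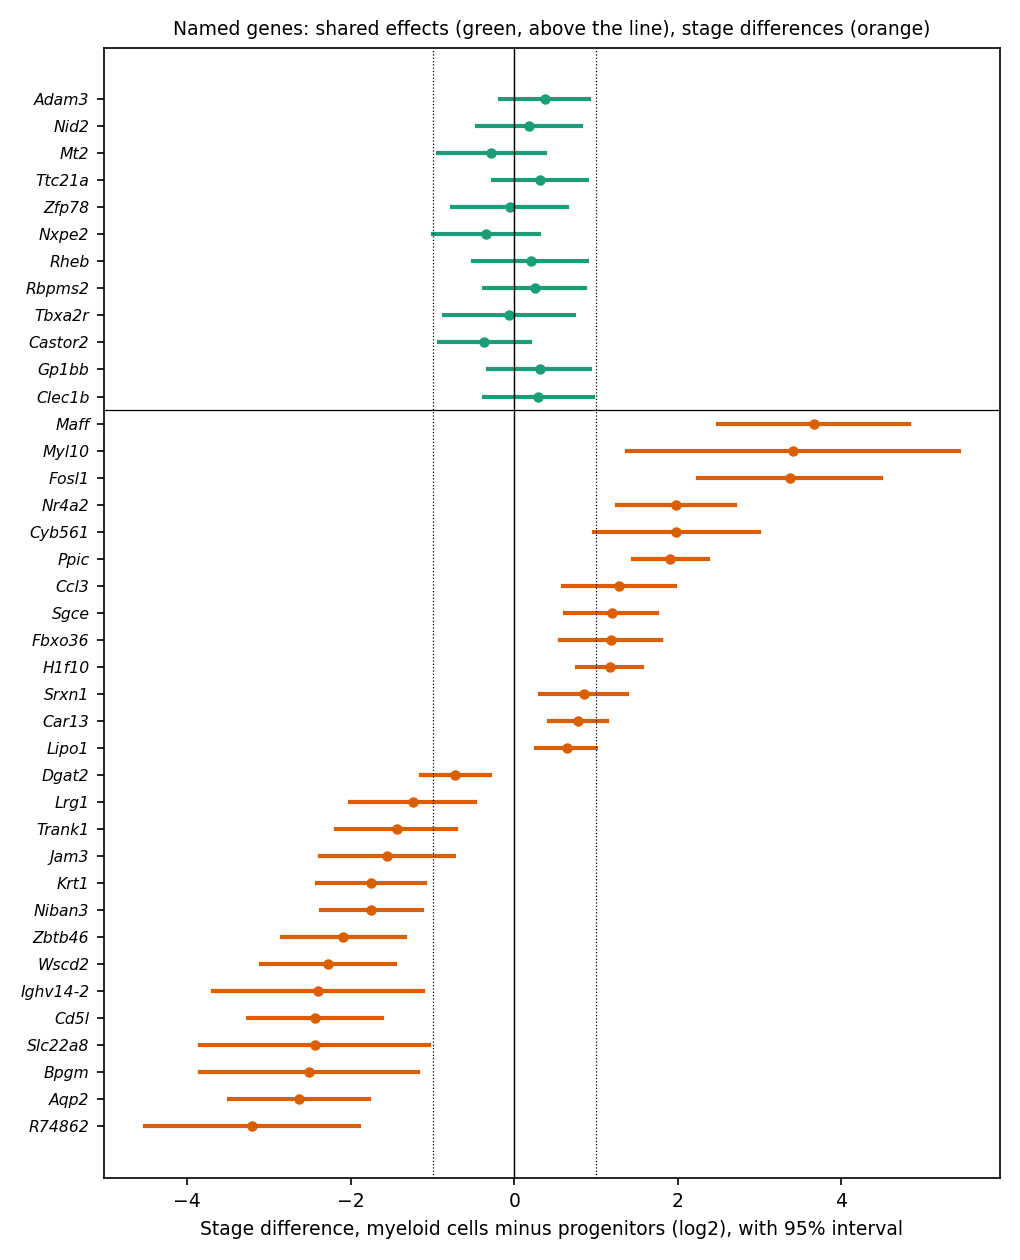
Stage difference (log2, horizontal axis) of the genes named by size, with its 95% interval as a line. All 12 shared genes lie inside the dotted lines at -1 and 1, and the intervals of the other genes exclude 0. Both follow from how these genes were chosen and are no separate result.

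The mTORC1 pathway list had few stage differences. Of 44 tested components, 1 had a higher and 0 a lower one, where 5.72% and 5.61% of all genes did. A shared effect was found for 5, of which 2 were rises and 3, Rheb included, were falls, where 1.54% and 1.96% of all genes had one. By the test within myeloid cells, 5 were higher and 12 lower, where 16.6% and 17.7% of all genes were. Grb10, an adaptor that mTORC1 phosphorylates and that damps insulin signalling, was -3.94, -4.08 and -3.84 in wild-type and -2.30, -2.10 and -1.85 in Rheb1-/- myeloid cells, a 3.65-fold rise. It lay between 0.45 and 0.71 on all 6 progenitor arrays, with an effect of 0.08 (stage difference 1.79 ± 0.17, adjusted p = 0.00365). The shared falls besides Rheb were those of Sesn1 and Sesn2, the sestrins that restrain mTORC1 when leucine is scarce, with effects of -0.63 and -0.54 in myeloid cells and -0.23 and -0.45 in progenitors. Rhebl1, the paralogue of Rheb, rose by 0.43 and 0.32, and Eif4ebp1, the translation repressor that mTORC1 inactivates, by 0.29 and 0.22. Without Rheb1-/- progenitor array 3 or any one Rheb1-/- myeloid array, 1 of the 3 shared falls was found. The median stage difference of the 44 genes was -0.10, near the -0.08 of all genes.

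Many upward stage differences belonged to growth and cell division genes. Of 75 cytosolic ribosomal protein genes, 33 had a higher and 0 a lower stage difference, where 5.72% of all genes were higher, and their median effect was 0.72 in myeloid cells and 0.18 in progenitors. Rps7 was 7.16, 7.20 and 7.09 in wild-type and 8.11, 8.26 and 8.17 in Rheb1-/- myeloid cells and 8.10 to 8.48 on progenitor arrays. In myeloid cells the genotypes stood apart, and the Rheb1-/- values overlapped those of progenitors (stage difference 0.84 ± 0.13, adjusted p = 0.00902). Rps3a1 (0.75) was also higher, and Rpl13a had the largest value of the list (1.00). In 7 genes the rise was also shared, among them Rpl18 (0.85 in myeloid cells and 0.24 in progenitors) and Rps14 (0.71 and 0.27). Ribosomal protein genes have many processed copies in the genome, and a probe may bind more than 1 of them. The 33 calls became 17 without Rheb1-/- progenitor array 1, the fewest for any array left out, and 11 with slide 3 alone. It was 19 to 21 without Rheb1-/- progenitor array 2 or 3, wild-type myeloid array 3 or Rheb1-/- myeloid array 2 or 3. The 7 shared rises ranged from 1 without wild-type progenitor array 1 to 15 without wild-type progenitor array 3, with 0 on slide 3 alone. The call of Rps14 was lost without each single array in turn (adjusted p 0.0558 to 0.0972), and that of Rpl18 with slide 3 alone (0.0565).

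Ribosome biogenesis genes followed the same course, with median effects of 0.63 and 0.07. A higher stage difference was found for 20 of these 48 genes and a lower one for 0, where 5.72% of all genes were higher. Myc, the transcription factor that drives this program, was 0.40, 0.49 and 0.38 in wild-type and 2.02, 2.52 and 2.61 in Rheb1-/- myeloid cells, a 3.88-fold rise, against 3.89 to 4.20 in wild-type and 4.24 to 4.71 in Rheb1-/- progenitors (stage difference 1.52 ± 0.24, adjusted p = 0.00961), and 2 more probes gave 1.54 and 1.21. Nop58, a box C/D snoRNP protein (1.02 ± 0.13, adjusted p = 0.00632), and Ppan, a large-subunit assembly factor (0.97 ± 0.12, adjusted p = 0.00753), rose in myeloid cells alone. Shared rises were those of Polr1c, a subunit of RNA polymerases I and III (0.72 and 0.38), and Rrp1b (0.90 and 0.37). Another probe of Rrp1b, above background on 10 arrays, gave -0.35 in myeloid cells and 0.35 in progenitors. Its probes above background on all 12 arrays gave 0.98 and 0.31 in myeloid cells and 0.27 and 0.1 in progenitors. Among translation factors, 9 of 40 had a higher stage difference, led by Eef1b2 (0.86), Eif3b (0.76) and Eef1d (0.70), and Tpt1, a growth-related protein, had a shared rise (0.84 and 0.47). The call of Eef1d was lost with the mean of its probes (0.129) and with slide 3 alone (0.0550). The biogenesis calls fell to 10 without wild-type progenitor 1, Rheb1-/- progenitor 1 or Rheb1-/- myeloid 2 or 3, and those of translation factors to 3 without Rheb1-/- progenitor 1. With slide 3 alone they were 6 and 2.

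DNA replication genes had the largest share of stage differences among the growth lists, 31 higher and 0 lower of 47, with median effects of 0.65 in myeloid cells and -0.01 in progenitors. Over all genes, 5.72% had a higher stage difference. Mcm3, a subunit of the replicative helicase, was 3.81, 3.64 and 3.57 in wild-type and 4.25, 4.40 and 4.41 in Rheb1-/- myeloid cells, and lay between 5.21 and 5.35 on all progenitor arrays without separation of the genotypes (stage difference 0.73 ± 0.12, adjusted p = 0.0105). Mcm4 (0.72), Uhrf1, which maintains DNA methylation at the fork (0.65), and Rrm2, a subunit of ribonucleotide reductase (1.01), did likewise. Cdt1, a licensing factor, rose at both stages (0.97 and 0.33) and was the 1 shared member. Of 43 mitosis genes 17 had a higher and 0 a lower stage difference, with median effects of 0.49 and -0.13, led by Ect2 (0.79 ± 0.12, adjusted p = 0.00961), Bub1 (0.90 ± 0.15, adjusted p = 0.0103) and Incenp (0.68 ± 0.13, adjusted p = 0.0134). A second probe of Bub1 above background on all arrays gave -0.31. The 1 shared fall was that of Cdc25b, a CDK-activating phosphatase (-0.33 and -0.36). It was lost without wild-type progenitor 3, Rheb1-/- progenitor 2 or 3, wild-type myeloid 2 or Rheb1-/- myeloid 1 or 3 (adjusted p 0.0536 to 0.0678), and other probes of the gene gave smaller values or the opposite sign in myeloid cells. The replication calls fell to 14 without Rheb1-/- myeloid array 2 and to 4 with slide 3 alone. The mitosis calls fell to 7 without Rheb1-/- progenitor 2, wild-type myeloid 2 or Rheb1-/- myeloid 3, and to 3 with slide 3 alone. Bub1 did not pass with the mean of its probes (0.164). Cdt1 lost its call without Rheb1-/- progenitor array 1 (0.0505) and Mcm4 with the mean of its probes (0.0821).

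Sterol synthesis showed the contrary pattern, a fall at both stages. Of 29 sterol and fatty acid synthesis genes, 12 had a shared fall and 0 a shared rise, where 1.96% of all genes had a shared fall, and the median effects were -0.45 in myeloid cells and -0.33 in progenitors. Among the 12 were genes along the mevalonate and cholesterol route from Hmgcs1 (-0.54 and -0.22), Mvk (-0.71 and -0.33), Mvd (-0.70 and -0.53) and Idi1 (-0.67 and -0.36) through Fdft1 (-0.40 and -0.28), Sqle (-0.97 and -0.64) and Tm7sf2 (-0.25 and -0.28) to Msmo1 (-0.92 and -0.52). They also held Insig1, which retains SREBP in the endoplasmic reticulum (-0.43 and -0.48), and Stard4, a sterol carrier (-0.45 and -0.48). Msmo1, the sterol C4-methyl oxidase, was 2.18, 2.03 and 2.31 against 1.68, 1.70 and 1.57 in progenitors and 3.82, 3.90 and 3.85 against 2.89, 2.94 and 2.97 in myeloid cells. The genotypes did not overlap at either stage (mean effect -0.72 ± 0.06, adjusted p = 0.000350). Scd2, a fatty acid desaturase, went the other way and rose in myeloid cells (0.92, stage difference 0.98), a call lost with slide 3 alone (0.0707). Without single arrays 8 to 14 shared falls were found, and with slide 3 alone 6. Of the 29 genes, 27 were above background on all 12 arrays, and all were on every wild-type myeloid cell array.

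Respiratory chain and glycolysis genes had few stage differences, where 5.72% of all genes had a higher and 5.61% a lower one. A shared rise was found for 1.54% and a shared fall for 1.96% of all genes. Among 46 respiratory chain genes 1 had a stage difference, Cycs, the electron carrier cytochrome c (0.61), which was lost without any array but wild-type progenitor 1 (adjusted p 0.0509 to 0.0965). Among 32 glycolysis and HIF1 target genes 1 did, Pdk1, which shuts pyruvate out of the mitochondrion, with an effect of 1.01 in myeloid cells and 0.17 in progenitors (0.84 ± 0.17, adjusted p = 0.0169; 0.0556 with slide 3 alone). Vegfa had a shared rise (0.80 and 0.41) and Pfkfb4 a shared fall (-0.66 and -0.33). Of 31 genes of amino acid supply under ATF4, 4 had a higher stage difference (Atf4, Phgdh, Slc7a1 and Aldh18a1) and 1 a lower one, Chac1, a glutathione-degrading enzyme. Atf4 rose by 0.64 in myeloid cells and had an effect of -0.35 in progenitors (0.99 ± 0.17, adjusted p = 0.0113), whereas Chac1 changed by -0.85 and 0.58 (-1.43 ± 0.18, adjusted p = 0.00753). Phgdh, the first enzyme of serine synthesis, rose by 1.05 in myeloid cells (stage difference 0.91). Shared falls were those of Gpt2 (-0.53 and -0.71), Trib3 (-0.75 and -0.76) and Sesn2, and that of Trib3 was lost with the mean of its probes (0.0777). Of 23 genes of tRNA synthetases and their partner proteins 1, Eef1e1, had a stage difference (0.60), lost without any array but wild-type myeloid 1 and Rheb1-/- myeloid 1 (0.0609 to 0.0970). In the same list 1, Aimp1, had a shared rise (0.66 and 0.23), lost with the mean of its probes (0.292). Both encode partner proteins and not synthetases.

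Primary granule genes, which progenitors express most highly, rose in Rheb1-/- myeloid cells. Of 16 genes, 10 had a higher and 0 a lower stage difference, where 5.72% of all genes were higher. The median effects of the 16 were 0.72 and 0.11. Cst7, a cystatin of granules, was 2.79, 2.30 and 2.24 in wild-type and 3.79, 3.96 and 4.10 in Rheb1-/- myeloid cells, against 5.35 to 5.74 on all progenitor arrays (stage difference 1.26 ± 0.20, adjusted p = 0.00996). The granule proteases Prss57 (1.06), Ctsg (1.24), Prtn3 (1.35) and Elane (1.02) did likewise. Nkg7 (1.20), another member, also stands in the list of T and NK cell markers, where it was the only one to rise. Igsf6 had a shared rise (0.22 and 0.29), lost with quantile normalization (0.0533) and with slide 3 alone (0.0674). The number of calls was 6 without wild-type myeloid array 2 and up to 9 without other arrays, and 4 with slide 3 alone. Prtn3 lost its call without Rheb1-/- progenitor 1, wild-type myeloid 2 or Rheb1-/- myeloid 2 or 3, and Elane kept it only without Rheb1-/- progenitor 3, wild-type myeloid 1 or Rheb1-/- myeloid 1 (0.0506 to 0.0659). Of 23 myeloid progenitor genes, Hoxa9 (1.64), Myc, Cdk6 (0.98 ± 0.13, adjusted p = 0.00796) and Kit had higher stage differences. In the same list 1 gene had a lower stage difference, where 5.61% of all genes did, and 1 a shared fall. The list as a whole did not rise: its median stage difference was 0.0, with 12 of the 23 genes above 0, and its median effects were -0.07 in myeloid cells and 0.04 in progenitors. Cdk6, a G1 kinase, went from 3.28, 3.32 and 3.45 to 4.30, 4.57 and 4.51 in myeloid cells. It lay between 5.94 and 6.21 on progenitor arrays.

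By the test within myeloid cells, 7 of 29 neutrophil maturation genes, 19 of 41 monocyte and macrophage genes and 17 of 38 phagocytic receptors and opsonins were lower in Rheb1-/- samples, where 17.7% of all genes were. All genes of these lists were above background on every wild-type myeloid cell array, but 28, 38 and 32 were on all 12 arrays. The others passed the filter through groups in which they were high, so a lower level on other arrays was built in for them. A lower stage difference was found for 2, 3 and 1 genes of these lists, where 5.61% of all genes had one. Of the 29 neutrophil maturation genes, 2 had a lower stage difference, Cd33, a sialic acid receptor (-0.59 in myeloid cells, 0.90 in progenitors, stage difference -1.49 ± 0.25, adjusted p = 0.0105), and Padi4, the enzyme that citrullinates histones (-0.51 and 0.23, -0.74). The call of Padi4 was kept only without wild-type progenitor 3 (otherwise 0.0547 to 0.0890), and 10 of the 29 genes had a lower stage difference without that array and 1 without any other. In the monocyte and macrophage list of 41 genes, Maf, a macrophage transcription factor, had a lower stage difference (-0.76 ± 0.13, adjusted p = 0.0107), as had Cd5l and Cd68, and Vcam1, an adhesion molecule of resident macrophages, a higher one (0.94 ± 0.19, adjusted p = 0.0168). Shared falls were those of Csf1r, the M-CSF receptor (-0.58 and -0.35), Mpeg1, perforin-2 (-0.53 and -0.34), and Adgre1, which encodes F4/80 (-0.43 and -0.45). None of these 3 passed as shared without Rheb1-/- progenitor array 2. With slide 3 alone Cd68 (0.0604) and Vcam1 (0.0618) lost their calls.

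Among 38 phagocytic receptors and opsonins, 1 had a stage difference, Lrp1, a scavenger receptor for dying cells, which was 2.45, 2.53 and 2.26 in wild-type and 1.99, 2.14 and 2.06 in Rheb1-/- myeloid cells. In progenitors it ran the other way, from -0.60, -0.53 and -0.43 to -0.11, 0.18 and 0.05, without overlap at either stage (stage difference -0.91 ± 0.15, adjusted p = 0.00974). The shared falls were those of Fcer1g, the common chain of Fc receptors (-0.54 and -0.47), Fcgr1, the high-affinity IgG receptor (-0.57 and -0.46), and Itgb3, an integrin chain of platelets and macrophages (-0.74 and -0.86). A second probe of Itgb3 gave 0.03 in progenitors. Over all genes, 5.72% had a higher and 5.61% a lower stage difference, and 1.96% a shared fall. Of 46 lysosome genes, Ctsl, a cysteine protease, stood out in size: it was 2.61, 2.58 and 2.69 in wild-type and 3.83, 4.05 and 4.19 in Rheb1-/- myeloid cells, and between 2.40 and 2.61 in progenitors (stage difference 1.27 ± 0.13, adjusted p = 0.00365). Arsb, a lysosomal sulfatase, changed by 0.37 and -0.74 (1.12, adjusted p = 0.0184; 0.0605 with slide 3 alone), Cd68 by -0.43 and 0.28 (-0.71), and Npc1 had a stage difference of -0.57. The V-ATPase genes Atp6v0a1 (-0.80 and -0.44) and Atp6v1d (-0.34 and -0.21) had shared falls, neither of them without wild-type progenitor array 1, and of 2 other probes of Atp6v0a1 one gave -0.31 and the other 0.25 in progenitors. Of 33 autophagy genes, Atg4c had a lower stage difference (-0.58) and Atg14 a shared rise (0.34 and 0.21). The call of Atg4c was kept only without wild-type progenitor 2, wild-type myeloid 1 or Rheb1-/- myeloid 1 (otherwise 0.0509 to 0.0703), and that of Atg14 was lost with slide 3 alone (0.0548).

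Immediate early and heat shock genes had the highest median stage difference of the 31 lists, 0.85, with medians of 0.49 in myeloid cells and -0.27 in progenitors. Of 30 genes, 5 had a higher stage difference and 0 a lower one, where 5.72% of all genes were higher: Maff, Fosl1, Atf3 (2.76), Jun (2.07) and Hsp90aa1 (0.78). Atf3, a stress-induced bZIP factor, was 2.00, 1.61 and 1.68 in wild-type and 3.74, 3.65 and 3.79 in Rheb1-/- myeloid cells, a 3.90-fold rise. In progenitors it was 1.52, 1.49 and 0.88 in wild-type and 1.17, 0.14 and 0.19 in Rheb1-/- samples, so its effect there was -0.80, opposite in sign, but the genotypes overlapped (stage difference 2.76 ± 0.38, adjusted p = 0.00902). Without single arrays 4 to 9 genes of the list passed, the most without Rheb1-/- progenitor array 1. Of 28 inflammatory genes, Ccl3 and Ccl4 (1.48 ± 0.35, adjusted p = 0.0278), both chemokines, had higher stage differences and Tnfaip2 a lower one (-0.60 ± 0.13, adjusted p = 0.0199; 0.0694 with slide 3 alone). Ccl4 lost its call without wild-type progenitor 1 or 2, Rheb1-/- progenitor 2 or 3, wild-type myeloid 2 or Rheb1-/- myeloid 3 (0.0546 to 0.0641).

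The 39 interferon response genes had median effects of -0.61 in myeloid cells and -0.27 in progenitors. Shared falls were found for 4 of them, where 1.96% of all genes had one and 5.61% a lower stage difference. These were Irf7, the factor that amplifies type I interferon (-0.90 and -0.83), and Usp18, a brake on its receptor (-0.80 and -0.92). The others were Mx1, an antiviral GTPase (-0.64 and -0.63), and Dhx58 (-0.56 and -0.34). Irf7 was -3.22, -3.15 and -2.94 against -4.24, -4.02 and -3.53 in progenitors and 1.48, 1.16 and 0.98 against 0.62, 0.11 and 0.20 in myeloid cells. The genotypes did not overlap at either stage (mean effect -0.86 ± 0.14, adjusted p = 0.00325). Isg20, an exonuclease, had the 1 stage difference of the list: it fell from 2.67, 2.73 and 2.83 to 1.64, 0.83 and 1.30 in myeloid cells and lay between -0.37 and -0.16 in progenitors (-1.51 ± 0.24, adjusted p = 0.00961). The number of shared falls was 3 to 9 without single arrays, the most without Rheb1-/- progenitor array 3, and 10 with slide 3 alone, and Mx1 did not pass with the mean of its probes (0.167). None of 14 class II presentation genes, of which 11 were above background on all 12 arrays, had a stage difference or a shared effect. H2-DMb2, of smallest p, had effects of -0.95 and -0.27 (stage difference -0.68, adjusted p = 0.0816).

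**Figure D4:**
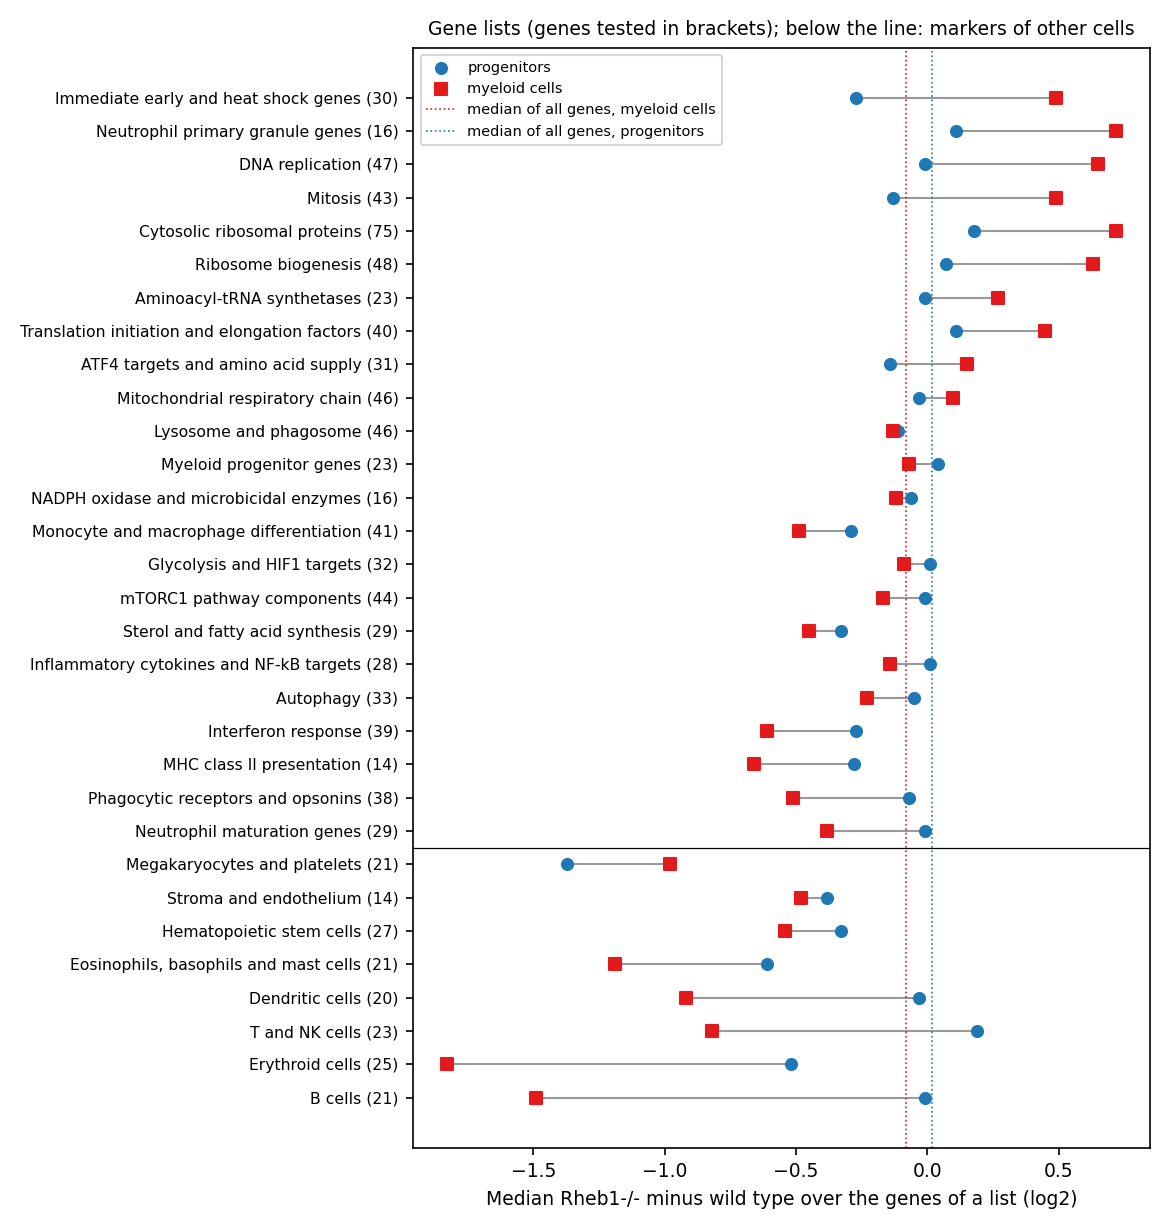
Median genotype effect (log2) over the genes of each list in progenitors (blue circles) and myeloid cells (red squares), with dotted lines at the medians of all genes (0.02 and -0.08). Growth and division lists have myeloid medians of 0.45 to 0.72 beside progenitor medians of -0.13 to 0.18. Sterol and interferon lists lie to the left at both stages. So do the class II and macrophage lists and the erythroid, platelet, eosinophil, stem cell and stroma marker lists. The B cell and erythroid lists reach -1.49 and -1.83 in myeloid cells.

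Markers of other blood cells moved with the genotype as well, in lists that the filter on dim genes shapes. Of the 25 erythroid, 21 B cell, 23 T and NK cell and 20 dendritic cell genes tested, all were above background on every wild-type myeloid cell array, but 18, 14, 15 and 13 were on all 12 arrays. The others passed the filter through groups in which they were high, so a lower level on other arrays was built in for them, and the counts and medians below describe these genes without testing the list. The 25 erythroid genes had median effects of -1.83 in myeloid cells and -0.52 in progenitors. Of these, 18 were lower in Rheb1-/- myeloid cells by the test within that cell type, where 17.7% of all genes were, but 0 had a stage difference (8, all lower, with normexp background correction), and 1, Car1, a carbonic anhydrase, had a shared fall (-0.88 and -0.65). Their mean level was -0.15 to 0.60 on wild-type and -2.16 to -0.68 on Rheb1-/- myeloid cell arrays, with 25 and 20 genes above background on all arrays of the group, and -1.89 to -1.38 and -2.37 to -1.83 in progenitors. All 21 megakaryocyte and platelet genes tested were above background on every wild-type progenitor array, but 15 were on all 12 arrays, so the same limit holds. These 21 genes had medians of -0.98 in myeloid cells and -1.37 in progenitors. Shared falls were those of Clec1b, Gp1bb and Itgb3, where 1.96% of all genes had one. Without wild-type progenitor 2 or 3, Rheb1-/- progenitor 1 or wild-type myeloid 3, 1 of these shared falls was found, and that of Car1 was not found without wild-type progenitor 1 or 2, Rheb1-/- progenitor 2 or 3, wild-type myeloid 1 or Rheb1-/- myeloid 1 or 3. Their mean level was -0.13 to 0.56 and -1.22 to -0.72 in wild-type and Rheb1-/- progenitors and -1.45 to -0.86 and -2.44 to -1.83 in myeloid cells.

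B cell genes had medians of -1.49 in myeloid cells and -0.01 in progenitors over 21 genes, and 15 of them were lower in Rheb1-/- myeloid cells by the test within that cell type. A stage difference was found for 5 (11 with normexp correction), all lower (from -1.96 to -1.02), among them Cd22, Cd79a, Blnk and Cd79b. Over all genes, 5.61% had a lower stage difference. Cd79b, a signalling chain of the B cell receptor, was 3.15, 3.77 and 3.98 in wild-type and 2.65, 2.33 and 2.67 in Rheb1-/- myeloid cells, without overlap, and between 3.14 and 3.36 in progenitors. The mean level of the list was -0.39 to 0.49 and -1.57 to -0.98 in the 2 myeloid groups. T and NK cell genes had medians of -0.82 and 0.19 over 23 genes and 4 lower stage differences (Cd8b1, Cd3d, Zap70 and Lck). Cd3d, a chain of the T cell receptor complex, went from 1.18, 1.61 and 1.43 to -0.85, -1.85 and -1.68 in myeloid cells, a 7.28-fold fall, and from -3.95, -4.23 and -4.06 to -4.77, -5.47 and -4.85 in progenitors (stage difference -1.92 ± 0.37, adjusted p = 0.0159; 0.0570 with slide 3 alone). The mean level of the list was -2.57 to -1.96 and -3.26 to -2.74 in the myeloid groups. Without wild-type myeloid array 1 the lower stage differences numbered 10 and 8 in the 2 lists, and without most other single arrays they numbered 2. The calls were kept only without wild-type myeloid 1 or Rheb1-/- myeloid 1 for Cd79b, only without Rheb1-/- progenitor 2, wild-type myeloid 1 or Rheb1-/- myeloid 3 for Blnk, and only without wild-type myeloid 1 for Lck (otherwise 0.0568 to 0.103).

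The remaining lists are given with their counts, where 5.72% of all genes had a higher and 5.61% a lower stage difference. Of the 21 eosinophil, basophil and mast cell, 27 stem cell and 14 stroma and endothelium genes, 18, 19 and 6 were above background on all 12 arrays. The limit set by the filter holds for these lists too. Dendritic cell genes had medians of -0.92 and -0.03 over 20 genes, with lower stage differences of Zbtb46 and Ccr9, a homing receptor (-1.47; 6 genes in all with normexp correction), the latter lost without Rheb1-/- progenitor 3 or wild-type myeloid 2 (0.0512 and 0.0573). Eosinophil, basophil and mast cell genes had medians of -1.19 and -0.61 over 21 genes, and Kit was the 1 gene with a stage difference (0.67 ± 0.15, adjusted p = 0.0243). Its call was lost without wild-type progenitor 2, Rheb1-/- progenitor 1 or 3, wild-type myeloid 2 or Rheb1-/- myeloid 3 (0.0520 to 0.0577). Among 27 stem cell genes, Hoxa7 (1.31), Hoxa9 and Kit had higher and Txnip (-0.72) and Ly6a (-0.59) lower stage differences. Hoxa7 was lost with slide 3 alone (0.0569), Ly6a was kept only without wild-type progenitor 3, wild-type myeloid 3 or Rheb1-/- myeloid 1 (otherwise 0.0574 to 0.0874), and Txnip was lost without wild-type progenitor 1, Rheb1-/- progenitor 1, wild-type myeloid 2 or Rheb1-/- myeloid 2 or 3 (0.0533 to 0.0612). None of 14 stroma and endothelium genes had a stage difference or shared effect, Stab2 being closest (-0.77, adjusted p = 0.0767). Most list counts of 3 or fewer also changed by 1 to 3 genes when single arrays were left out. Some genes stand in several lists, such as Myc, Kit, Elane, Nkg7 and Itgb3. In the wild-type myeloid cell arrays the erythroid, B cell and T cell marker levels were higher than in the Rheb1-/- ones, the same arrays on which growth, division and primary granule genes were lower, and the part of those cells in the stage differences was not tested.

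Additional probes and the stem cell arrays give 2 further readings of the same genes. For 555 genes with a stage difference, 770 other probes were above background on all 12 arrays, and 702 of them (91.2%) had the same sign of stage difference. For shared effects, 219 of 287 such probes (76.3%) had the same sign at both stages. These probes read the same samples on the same arrays, for genes chosen by their effects there, so they are not independent support. The same shares over all genes tested were not computed. In stem cells, with 1 array per genotype and no test, 62.8% of 15162 genes measured on both arrays were higher in the Rheb1-/- sample (median 0.12). Among genes with a shared rise the share was 78.1% (196 of 251, median 0.23), and among those with a shared fall 34.7% (112 of 323, median -0.19). Genes with a higher stage difference were higher in 72.4% and those with a lower one in 58.9%. The Rheb1-/- stem cell array lay on the slide of the wild-type myeloid cells. The wild-type stem cell array lay on slide 2 with wild-type progenitor array 1, scanned on another day. In stem cells, too, slide, scan day and genotype cannot be told apart.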

How the data were processed

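Total RNA (TRIzol extracts) was hybridised to single-colour (Cy3) Agilent arrays. Per the file headers, the deposited values used are the processed signal intensity of each spot from Agilent Feature Extraction 10.7.3.1, background-subtracted by the authors' scanner software; the submitters' processing notes name version 9.1. A second deposited table holds quantile normalized log2 values of the same arrays and served as an alternative. Each array's log2 intensity was scaled to its 75th percentile after control and outlier spots were left out. Genes were named through RefSeq (GRCm38.p6) from the probe's accession where it matched, autosomal probes only (mm9 coordinates), with the brightest probe per gene, and tested if well above background on all arrays of a group. limma 3.58.1 in R 4.3.3 fitted 4 group means over 12 arrays with Benjamini-Hochberg adjustment (8 residual degrees of freedom). On simulated data over 16711 genes, 44% of stage differences of 1 and 81% of those of 2 (log2) were recovered, and 72% of shared effects of 1. The simulation changed 100 genes for each of these, with independent noise and no slide effect. Recovery depends on the share of changed genes, so these rates need not hold for the data.

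Genes named had an official symbol and were well above background on all 12 arrays. They are Rheb, the genes of largest size in each pattern whose groups did not overlap, and up to 3 stage differences and 2 shared effects of smallest p in each list. Other genes named were chosen after their values were seen, and the results of some genes are not reported here. The members and lists were chosen with earlier results of these data known. Alternatives tried were background correction, scaling, the deposited table, probe averaging, the filter, replicate and slide blocks, slide 3 alone, all chromosomes, array weights, a trended prior, a minimum fold and leaving out each array.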

Additional observations from a re-analysis of the deposited data

Results flagged for a closer look

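The genotype effect, which in myeloid cells cannot be told apart from slide, differed between the cell types by the test of the stage difference itself. This held for 956 genes in the higher and 937 in the lower direction. The genes named above are given here with their stage differences (log2, effect in myeloid cells minus effect in progenitors).

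The stress-induced factors Maff (3.66), Fosl1 (3.37), Atf3 (2.76) and Nr4a2 (1.98) were higher, as were Myl10 (3.41), Cyb561 (1.98) and Ppic (1.91). Grb10 (1.79), Srxn1 (0.85), Car13 (0.78), Lipo1 (0.64), Sgce (1.19), Fbxo36 (1.18), H1f10 (1.17) and the chemokines Ccl3 (1.28) and Ccl4 (1.48) were also higher. The growth genes were Rps7 (0.84), Rps3a1 (0.75), Rpl18 (0.61), Rps14 (0.44), Eef1b2 (0.86), Eif3b (0.76), Eef1d (0.70), Nop58 (1.02), Ppan (0.97) and Myc (1.52). The cell cycle genes were Uhrf1 (0.65), Mcm3 (0.73), Mcm4 (0.72), Cdt1 (0.64), Ect2 (0.79), Bub1 (0.90), Incenp (0.68) and Cdk6 (0.98). Metabolic genes in this direction were Cycs (0.61), Pdk1 (0.84), Scd2 (0.98), Atf4 (0.99), Phgdh (0.91) and Eef1e1 (0.60). Granule and lysosome genes were Prtn3 (1.35), Elane (1.02), Cst7 (1.26), Prss57 (1.06), Ctsg (1.24), Nkg7 (1.20), Ctsl (1.27) and Arsb (1.12), and Vcam1 (0.94), Kit (0.67) and Hoxa7 (1.31) completed the higher genes.

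In the lower direction, R74862 (-3.21), Aqp2 (-2.63), Bpgm (-2.51), Slc22a8 (-2.44), Cd5l (-2.44) and Ighv14-2 (-2.40) were the lowest of the genes named by size. Genes with opposite or progenitor effects were Wscd2 (-2.28), Zbtb46 (-2.09), Krt1 (-1.75), Niban3 (-1.75), Jam3 (-1.56), Trank1 (-1.44), Lrg1 (-1.24) and Dgat2 (-0.72). Lymphoid and dendritic cell genes were Cd79b (-1.02), Blnk (-1.70), Cd3d (-1.92), Lck (-1.33) and Ccr9 (-1.47). The remaining genes were Chac1 (-1.43), Cd68 (-0.71), Atg4c (-0.58), Lrp1 (-0.91), Tnfaip2 (-0.60), Isg20 (-1.51), Cd33 (-1.49), Padi4 (-0.74), Maf (-0.76), Txnip (-0.72) and Ly6a (-0.59).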

How the results depend on the processing

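Without a filter on dim genes, 412 stage differences were higher and 396 lower, over 25648 genes tested. With the replicate number as a block, 613 were higher and 670 lower, and shared effects numbered 259 upwards and 344 downwards. Same-numbered arrays correlated at -0.16 to 0.13 after group means were removed, so the numbers were not taken as a pairing. With the progenitor arrays of slide 3 alone there were 220 higher and 333 lower stage differences and 102 and 202 shared effects, from 10 arrays. Against a minimum of 2-fold (limma's treat) 0 stage differences were higher and 0 lower, the smallest adjusted p being 0.364, although 655 of the 1893 genes were estimated at 2-fold or more; at an unadjusted p under 0.05 against no change, 5101 genes passed. On leaving out 1 array at a time, 446 to 1094 stage differences were higher and 481 to 1007 lower, and 153 to 263 shared effects were upwards and 186 to 395 downwards; the cause was not tested. In the other alternatives these counts stayed within 1.5 times. The shared fall of Rheb passed in all 25 alternatives (adjusted p 0.000611 to 0.0169), and the stage differences of Maff, Fosl1, Nr4a2, Ppic, Aqp2, Cd5l, Wscd2 and Niban3 did likewise. No named gene reversed its direction. Of 81 named stage differences, 30 lost their call without at least 1 array, as did 1 of 34 named mean effects, that of Cdc25b. The median stage difference of the myeloid progenitor, stem cell and stroma lists changed sign with normexp correction, under which lower stage differences numbered 8 instead of 0 among erythroid, 11 instead of 5 among B cell, 6 instead of 2 among dendritic cell, 4 instead of 1 among phagocytic and 6 instead of 3 among macrophage genes. With a median standard error of 0.21 per stage difference, small differences between the stages were not detectable.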
